A study of Mus musculus with 6 samples.

Results

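The 10 genes described here belong to the canonical Wnt pathway, in which beta-catenin carries the signal from the cell surface to the nucleus. They are the ligand genes Wnt3, Wnt4 and Wnt9a, the receptor gene Lgr4, the genes of the beta-catenin destruction complex Apc, Gsk3b and Axin2, the beta-catenin gene Ctnnb1, and the transcription factor genes Tcf7l2 and Lef1. They were taken by symbol from the 22298 genes of the deposited expression table, and each symbol matched 1 gene. The RNA came from MIN6 cells, a beta-cell line grown from an insulinoma of a transgenic mouse, which the study kept between passages 32 and 40. The 6 samples fall into 2 groups of 3, MIN6 control cells and MIN6 cells of chronic epinephrine exposure, and they share the line and carry no other named allele or agent. The study's methods give the epinephrine concentration as 100 nM, and its scheme gives 3 days of exposure and 2 days of withdrawal, without naming the day on which RNA for sequencing was taken. The study's methods give n = 3 for each sequenced group and define n as independent samples, and how those were grown apart is not described in the sources used here, so p-values measure the spread between these samples. The comparison asks whether the genes of the pathway differed after chronic epinephrine, since the study also chose beta-catenin as a proliferation gene for RT-qPCR.

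Without a Wnt ligand, cytosolic beta-catenin is held by the scaffolds Axin and Apc, phosphorylated by casein kinase and Gsk3, and degraded. A ligand bound to a Frizzled receptor and an Lrp coreceptor stops this, and beta-catenin then enters the nucleus and switches on target genes together with a TCF or LEF factor, among them Axin2, which feeds back on the pathway. Beta-catenin also links cadherins to the cytoskeleton, and in epithelial cells much of the protein serves adhesion. In islets the pathway is known for its part in beta-cell growth, and common variants of the human TCF7L2 gene are known for their association with type 2 diabetes.

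The expected counts of a library summed to between 15017065 and 17457583 in control and between 15256957 and 18127171 after epinephrine. A gene listed at 0 could have held up to 3 counts in a sample, which corresponds to 0.165 to 0.200 CPM (counts scaled to the library total), for counting error only. The 12 beta-cell markers checked were all expressed, with summed CPM of 43000 to 62700 in control and 55400 to 57600 after epinephrine. Of these, Slc2a2, Ins1 and Ucn3 were lower after epinephrine in edgeR's quasi-likelihood test, with log2 fold changes of -0.76, -0.50 and -0.74 (FDR 0.00434, 0.0152 and 0.00868), while Ins2, Iapp, Pdx1, Nkx6-1, Nkx2-2, Mafa, G6pc2 and Slc30a8 did not pass. Of markers of other cells, the glucagon gene Gcg averaged 194 ± 18.2 CPM in control and 394 ± 16.4 after epinephrine (SD, n = 3, edgeR FDR 0.00199). The 8 leukocyte markers summed to 1.09 to 3.24 CPM in control and 3.14 to 4.33 CPM after epinephrine, with Cd68 higher after epinephrine (means 0.539 and 2.83 CPM, edgeR FDR 0.00906), lower means for Csf1r (1.05 and 0.824) and Lyz2 (0.296 and 0.103), and at most 3 counts in every sample for 5 of the 8. The 9 fibroblast markers summed to 1.77 to 24.2 CPM in control and 1.98 to 19.8 CPM after epinephrine with none called, and their means moved both ways, from 2.01 to 8.46 CPM for Col1a1 but from 3.13 to 0.288 for Col3a1, from 3.75 to 1.56 for Col1a2 and from 1.25 to 0.101 for Dcn. Of 7 exocrine markers, 5 had at most 3 counts in every sample. Control 1 stood apart from the other libraries, with a correlation of log2 CPM across genes of 0.978 to 0.979 with controls 2 and 3, against 0.993 between those 2. Controls 2 and 3 correlated at 0.985 to 0.987 with the epinephrine libraries, and so were nearer to these than to control 1. In controls 2 and 3, 9 hepatocyte markers summed to 62.9 and 159 CPM, with albumin (Alb) at 33.9 and 82.3 CPM, while the same 9 markers summed to 2.73 to 5.96 CPM in the other 4 libraries. Ttr, a hepatocyte marker that islet cells also express, averaged 1360 CPM over the 6 samples and was left out of that sum.

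The study measured beta-catenin by RT-qPCR with a primer pair that is shown because it marks the part of the transcript on which that assay rests. Both primers were matched to the transcripts of GENCODE mouse release M21 on GRCm38.
CTNNB1 forward primer: ACTTGCCACACGTGCAATTC
CTNNB1 reverse primer: CATGGTGCGTACAATGGCAGA
The forward primer lies on the plus strand at chr9:120951093-120951112 in exon 4 of transcript Ctnnb1-201, and the reverse primer is the complement of chr9:120951357-120951377 in exon 5 of its 15 exons. Both lie in the coding sequence, and the product spans 166 bases of the spliced transcript. Of the 15 annotated Ctnnb1 transcripts, 7 hold both primer sites, and no transcript of another gene holds either. The sequencing counts cover the whole gene and therefore also transcripts without these sites. The RT-qPCR values were not analysed here.

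By length-scaled expression (FPKM), the 10 genes differed far more among themselves than between the groups. In control, Ctnnb1 was highest at 148 ± 9.97 FPKM (SD, n = 3), above 98.4% of the genes in the table. It was followed by Gsk3b at 25.5 ± 6.19, Apc at 15.8 ± 0.662, Wnt4 at 10.7 ± 1.80, Axin2 at 4.25 ± 0.639 and Lgr4 at 3.02 ± 0.346 FPKM. Wnt9a at 0.657 ± 0.104 and Wnt3 at 0.337 ± 0.0814 FPKM came lower, and the listed values of Tcf7l2 and Lef1 averaged 0.00667 and 0 FPKM. From Ctnnb1 to Wnt3 no neighbours in this order overlapped in their control samples, while Tcf7l2 and Lef1 did. After chronic epinephrine the order was the same, with Ctnnb1 at 128 ± 5.83 FPKM and Gsk3b at 23.6 ± 0.225, but there Axin2 at 3.52 ± 0.233 and Lgr4 at 3.23 ± 0.0755 FPKM overlapped. The plot of FPKM by gene shows this order, with the remaining TCF and LEF genes beside it.

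**Figure D1:**
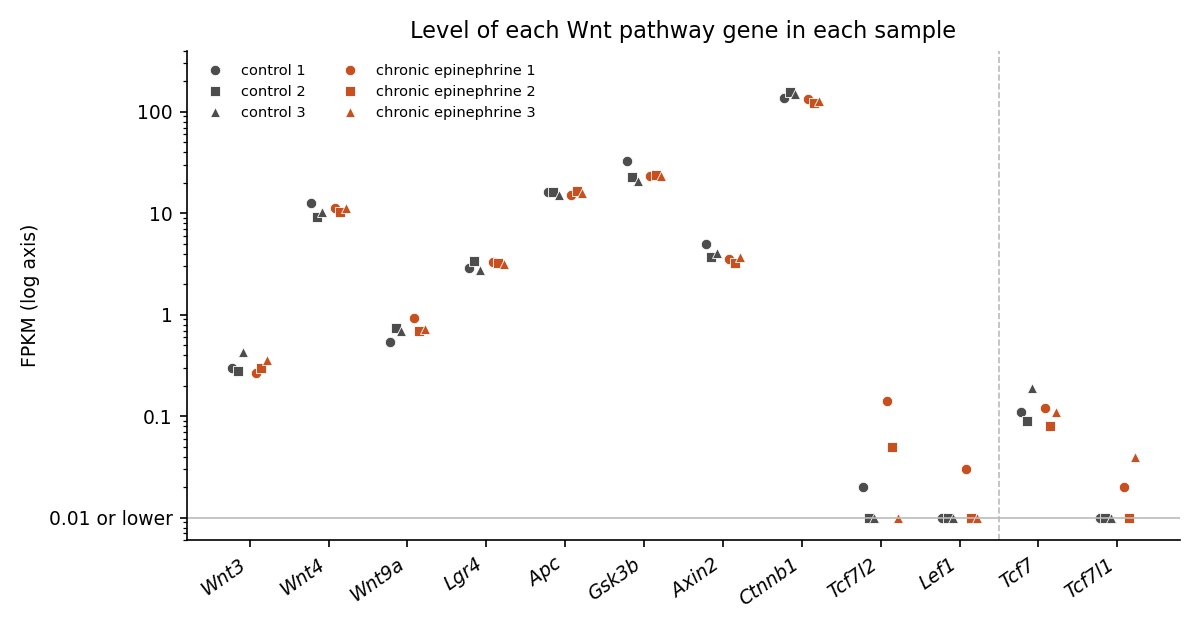
FPKM of the 10 genes, and right of the dashed line of Tcf7 and Tcf7l1, in each of the 6 samples on a log axis, with values at or under 0.01 drawn at 0.01. Ctnnb1 lies between 121.61 and 155.91 FPKM in every sample, whereas no TCF or LEF gene exceeds 0.19 FPKM in any.

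None of the 10 genes differed between the groups at a false discovery rate (FDR, Benjamini-Hochberg over all genes tested) under 0.05, whether by edgeR's quasi-likelihood test, by DESeq2 or by limma on log2 FPKM. The filter on low counts kept 8 of the 10. Of the 12747 genes tested by edgeR 2.63% were called, 2.02% higher and 0.612% lower after epinephrine, and 0.722% were called with a change of at least 2-fold. At an unadjusted p under 0.05, which 17.1% of all tested genes had, there was also none of the 8. The median log2 fold change over the 8 was -0.05, beside 0.00 over all genes tested, with 5 of 8 lower after epinephrine, beside 50.5% of all. Only for Axin2 among the 8 genes (12.5%) were the samples of the groups fully apart, as they were for 27.3% of all tested genes. Values below are CPM normalized by TMM, which scales each library by its total and composition, and a fold change compares chronic epinephrine with control.

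**Figure D2:**
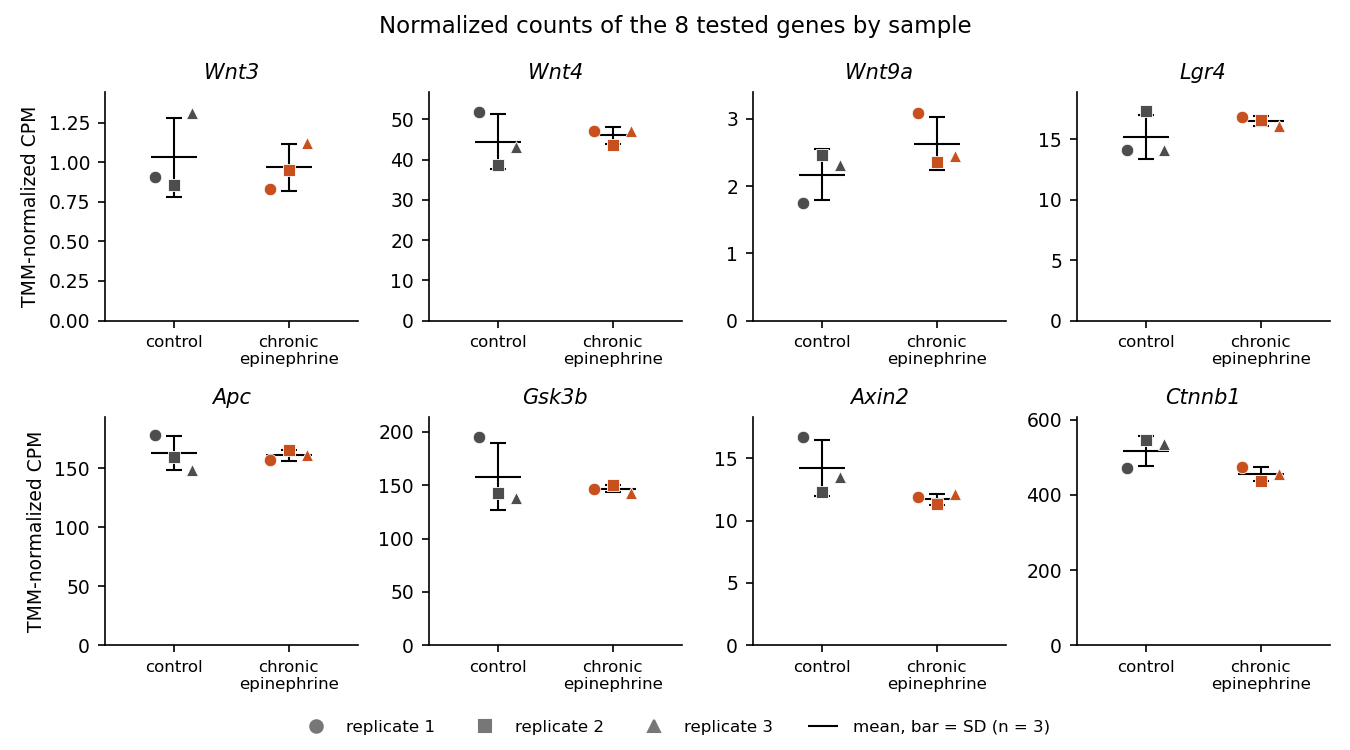
TMM-normalized CPM of the 8 tested genes in each sample, with replicate numbers as symbols and the mean and SD of each group (n = 3), every axis starting at 0. Control 1 is the highest control sample for Wnt4, Apc, Gsk3b and Axin2 and the lowest for Wnt9a and Ctnnb1, and the groups are apart for Axin2 alone.

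Of the ligand genes, Wnt4 was the most abundant member. Wnt4, on chr4:137277489-137299726, encodes a ligand that signals with or without beta-catenin depending on the cell. It stood at 51.9, 38.6 and 43.1 CPM in controls 1, 2 and 3 and at 47.2, 43.7 and 47.2 CPM in chronic epinephrine 1, 2 and 3. The epinephrine samples all lay within the range of the controls, and the log2 fold change was 0.05 (SE 0.12, 95% interval -0.22 to 0.32, edgeR FDR 0.864). Of its 50-base sequence windows, 3.85% were shared with other genes, and some of its deposited counts were not whole numbers. Wnt9a, on chr11:59306928-59333552, had only 27 to 52 counts per sample. It stood at 1.75, 2.46 and 2.32 CPM in control and at 3.08, 2.35 and 2.45 CPM after epinephrine. Control 1 was the lowest and epinephrine 1 the highest, the other 4 samples lay close together, and the log2 fold change of 0.27 (SE 0.22, 95% interval -0.24 to 0.77, edgeR FDR 0.585) did not pass. Wnt3, on chr11:103774150-103817957, a ligand of canonical signalling, had 14 to 21 counts per sample. Its CPM were 0.906, 0.857 and 1.31 in control and 0.830, 0.953 and 1.12 after epinephrine, with the groups overlapping almost fully. The 95% interval of the Wnt3 log2 fold change (-0.08) ran from -0.77 to 0.60, or 0.588 to 1.51 times the control level.

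Lgr4, on chr2:109917647-110014257, is a receptor for R-spondins, secreted proteins that keep Wnt receptors on the cell surface. Its values were 14.1, 17.3 and 14.1 CPM in control and 16.8, 16.6 and 16.1 CPM after epinephrine. The epinephrine samples were close to each other and lay between the lower controls and control 2. The log2 fold change was 0.12 (SE 0.11, 95% interval -0.14 to 0.38, edgeR FDR 0.642).

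Control 1 was the highest control sample for all 3 destruction complex genes, and the groups did not overlap for Axin2 alone. Apc, on chr18:34220924-34322552, is the large scaffold of the complex. It stood at 178, 160 and 149 CPM in control and at 157, 166 and 161 CPM after epinephrine. The epinephrine values all fell inside the control range, and with 2384 to 2966 counts per sample the 95% interval of the log2 fold change (-0.01) was -0.22 to 0.20. Gsk3b, on chr16:38089001-38246084, encodes a kinase that marks beta-catenin for degradation and also acts in insulin signalling. It stood at 195 CPM in control 1 against 143 and 138 CPM in controls 2 and 3, and at 147, 150 and 143 CPM after epinephrine. Control 1 alone was high, and its log2 ratio to the mean of controls 2 and 3 was 0.47, where the median size of that ratio over all tested genes was 0.29. The log2 fold change of Gsk3b was -0.11 (SE 0.13, FDR 0.725 by edgeR) over all samples and 0.07 (SE 0.05, FDR 0.414) without control 1, so that its direction rested on that library.

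Axin2, on chr11:108920349-108950783, is both a scaffold of the complex and a widely used target gene of beta-catenin. It stood at 16.7, 12.3 and 13.5 CPM in controls 1, 2 and 3 and at 11.9, 11.3 and 12.1 CPM in epinephrine 1, 2 and 3. Every epinephrine sample lay below every control sample, though control 2 and epinephrine 3 were only narrowly apart. The mean was 14.2 ± 2.26 CPM in control and 11.7 ± 0.431 CPM after epinephrine (SD, n = 3), from 183 to 258 counts per sample. The log2 fold change of -0.27 (SE 0.13, 95% interval -0.58 to 0.04) did not pass edgeR's test (FDR 0.352). Permuting the labels exactly (two-sided) gave p = 0.1, and 3 samples against 3 can give no smaller value. Without control 1 the log2 fold change was -0.14 (95% interval -0.36 to 0.09, edgeR FDR 0.420), and in all 15 alternative analyses it remained below 0. An exon of Gm11670 overlaps Axin2 on the other strand, and since the sources used here do not say whether counting used strand, reads of both cannot be told apart.

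Ctnnb1, on chr9:120929216-120960507, had 6882 to 9552 counts per sample, the most of the 10 genes. Its values were 472, 546 and 534 CPM in controls 1, 2 and 3 and 473, 436 and 455 CPM in chronic epinephrine 1, 2 and 3. Controls 2 and 3 lay above every epinephrine sample, whereas control 1 lay among them, just under epinephrine 1. The group means were 517 ± 39.6 CPM in control and 455 ± 18.7 CPM after epinephrine (SD, n = 3), a fold change of 0.879. On the log2 scale this was -0.19 (SE 0.09, 95% interval -0.39 to 0.02), which did not pass edgeR's test (FDR 0.340). The exact permutation p, two-sided, was 0.2. The upper end of that interval corresponds to 1.01 times the control level, and the lower end to 0.763 times.

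The call for Ctnnb1 changed with a single library. Without control 1, which leaves 2 control samples, edgeR gave a log2 fold change of -0.25 (SE 0.05, 95% interval -0.35 to -0.15) with an FDR of 0.00044, and over all alternatives its FDR lay between 0.00044 and 0.674. In that analysis 21.6% of all genes tested were called, 9.46% of all being lower after epinephrine, and of the 8 genes Ctnnb1 was the only one. Of the 8, 3 were then below 0 (37.5%), beside 49.7% of all genes. Wnt4 then had a log2 fold change of 0.17 (95% interval 0.03 to 0.32) with an FDR of 0.0829, which missed the threshold. The 2 control libraries in which Ctnnb1 was high are also those with hepatocyte markers. Summed over 9 genes, these were at 62.9 and 159 CPM, against 2.73 to 5.96 CPM in the other libraries. Control 1 in turn had the lowest beta-cell marker sum of all libraries (43000 CPM) and the highest fibroblast marker sum (24.2 CPM). Single beta-cell markers went both ways, with Ins2 and Iapp, which make up most of that sum, lowest in control 1 (24500 and 8460 CPM). Mafa, Pdx1, Nkx6-1 and Nkx2-2 were instead highest in control 1 (884, 696, 411 and 181 CPM). Among the controls, control 1 also had the highest leukocyte (3.24 CPM) and exocrine (0.842 CPM) marker sums. The part of any of these in the Ctnnb1 difference was not tested. Exons of Ulk4 on the other strand and of the microRNA gene Mir7090 on the same strand overlap Ctnnb1, and none of its 50-base windows was shared with another gene.

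**Figure D3:**
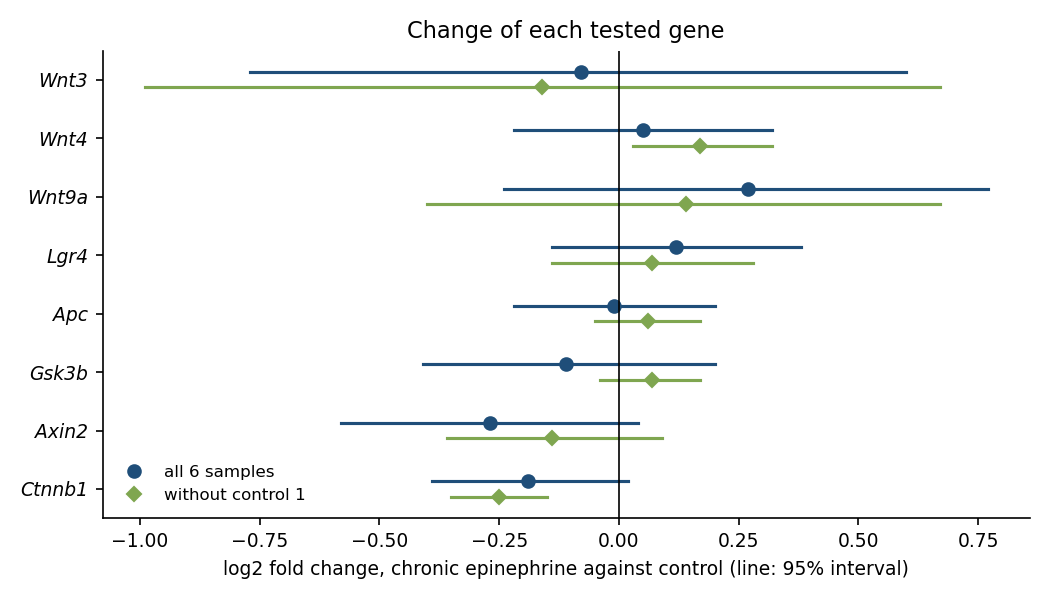
Log2 fold change of each tested gene, chronic epinephrine against control, as points with 95% intervals, from all 6 samples (circles) and without control 1 (diamonds). Over all samples every interval includes 0, and without control 1 the intervals of Ctnnb1 (-0.35 to -0.15) and Wnt4 (0.03 to 0.32) do not.

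The transcription factors through which beta-catenin acts were close to undetected in these cells. Tcf7l2, on chr19:55741820-55933654, the TCF factor most studied in beta cells, had 1, 0 and 0 counts in controls 1, 2 and 3 and 5, 1 and 0 counts in epinephrine 1, 2 and 3. Lef1, on chr3:131110471-131224356, a factor that acts in development and in lymphocytes, was listed at 0 counts in every sample except epinephrine 1, which had 1 count. Both were too low for the filter, and in an edgeR analysis without a filter their FDR was 0.584 and 0.682. The other members of the family were also low. Tcf7, which was detected in all 6 samples, had 4, 3 and 5 counts in control and 5, 2 and 4 after epinephrine, and Tcf7l1 had 0 counts in every control and 1, 0 and 2 after epinephrine. None of the 4 TCF and LEF genes therefore entered the test, and no fold change is given for them, since every value was at or under 5 counts, in libraries that summed to at least 15017065. Of the 50-base windows of these genes, 0.462% were shared with other genes for Lef1 and none for Tcf7l2, Tcf7 and Tcf7l1.

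The pathway beyond the 10 genes was described with lists written by role, 132 of whose 134 genes were in the table and 85 of which were tested by edgeR. Of these 85, the FDR was under 0.05 for 1 gene, 1.18% against 2.63% of all genes tested, and 13 had an unadjusted p under 0.05, beside 17.1% of all genes tested. That gene was Wnt5a, on chr14:28504750-28527448, which encodes a ligand best known for signalling without beta-catenin. It stood at 12.7, 11.6 and 12.1 CPM in control and at 16.6, 17.3 and 17.7 CPM after epinephrine, with no overlap between the groups. Wnt5a rose 1.42-fold after chronic epinephrine, a log2 fold change of 0.50 (SE 0.10, 95% interval 0.28 to 0.73, edgeR FDR 0.0384). The call held in 6 of 15 alternatives and was lost in 9, among them the omission of any 1 of the 5 samples other than control 1, in which the FDR reached 0.193, though the log2 fold change stayed between 0.36 and 0.53. An exon of Gm2670 overlaps Wnt5a on the other strand.

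Few ligand genes were detected. Of the 19 Wnt genes, 7 passed the filter, 11 had at most 10 counts in every sample, and 3 of those (Wnt2, Wnt3a and Wnt8a) were at 0 throughout. By FPKM Wnt4 was the highest ligand, above Wnt5a at 2.87 ± 0.170 in control and Wnt5b at 1.68 ± 0.332 (SD, n = 3). The largest fold change among tested ligands was that of Wnt9b, -0.63 on the log2 scale from a mean of 1.12 CPM (edgeR FDR 0.282). Wls, which escorts Wnt proteins to the cell surface, was expressed at 95.8 ± 7.79 FPKM in control and 99.9 ± 2.47 FPKM after epinephrine. Porcn, which attaches the lipid that Wnt proteins need, had a log2 fold change of 0.34 (FDR 0.351), which was 0.19 without epinephrine 2.

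Of the 15 Frizzled and coreceptor genes 12 were tested and none was called. The largest log2 fold change was that of the coreceptor gene Lrp5, -0.47 (SE 0.21, edgeR FDR 0.308), with 32.8, 19.2 and 18.5 CPM in control and 17.7, 16.8 and 16.3 CPM after epinephrine. Control 1 held most of that difference, since the log2 fold change was -0.15 without it. In the group of R-spondins, their receptors and the ligases that remove Frizzled, 6 of 9 genes were tested, and Rspo1 had the largest fold change, 1.09 on the log2 scale (SE 0.57, edgeR FDR 0.376), from means of 0.463 CPM in control and 0.987 CPM after epinephrine. From 3 to 21 counts per sample, that log2 fold change was 1.82 without control 1 and 0.67 without control 2. Lgr5, the relative of Lgr4 that marks stem cells, had 0 to 3 counts per sample, and Rnf43, the ligase that beta-catenin itself induces, had none.

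Of the 15 genes listed as antagonists or antagonist receptors, 13 had at most 10 counts in every sample, including Dkk1 at 0 throughout, and 2 were tested. Kremen1, a receptor for Dkk proteins, stood at 27.5, 21.9 and 22.3 CPM in control and at 16.8, 14.6 and 18.6 CPM after epinephrine, without overlap, and its log2 fold change of -0.52 (SE 0.13) did not pass edgeR's test (FDR 0.0889). It passed in 2 of 15 alternatives, with DESeq2 (FDR 0.0317) and without control 1 (FDR 0.00312), and not in the other 13, in which the FDR reached 0.343. Among Dishevelled genes and their regulators none of 6 tested genes was called, with the largest fold change for Dact1, -0.28 on the log2 scale (FDR 0.300) and -0.18 without control 1.

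The list of the destruction complex holds its subunits, further casein kinases and the ligase components that recognise beta-catenin. It also holds genes that act against the complex, among them Frat1 and Frat2, which bind Gsk3, and the tankyrases Tnks and Tnks2, which promote the loss of Axin. All 19 genes of this list were tested, none was called, and all 19 had a log2 fold change below 0, beside 50.5% of all genes tested, with a median of -0.16. The largest was that of Frat1, -0.81 (SE 0.35, edgeR FDR 0.292), from 1.02 CPM in control and only 7 to 19 counts per sample. Likewise all 7 genes of beta-catenin and its adhesion partners were below 0 with none called, the largest being Jup, the plakoglobin gene, at -0.44 (FDR 0.311). Jup stood at 174 CPM in control 1 against 97.9 and 105 CPM in controls 2 and 3 and 89.9 to 94.9 CPM after epinephrine. Without control 1, the log2 fold change of Jup was -0.13. In that analysis 15 of the 19 genes of the destruction complex list (78.9%) and 4 of the 7 adhesion genes (57.1%) were below 0, beside 49.7% of all genes, and the medians were -0.07 and -0.01. There 4 of the 19 were called, all lower (21.1%, beside 21.6% of all genes called in either direction and 9.46% called lower), among them Amer1, a scaffold that binds Apc, whose log2 fold change was -0.34 without control 1 and -0.32 with all samples. Medians over the 19 genes were also taken relative to the mean of the controls. They were 0.12 in control 1, -0.02 and -0.06 in controls 2 and 3, and -0.16 to -0.13 in the epinephrine samples. All 6 tested Dishevelled genes and regulators were also below 0 (median -0.16), and 4 of 6 without control 1. The 2 tested antagonist genes were below 0, and the 2 tested genes of ligand release and inactivation above 0, with all samples. Of the 85 tested genes of all role lists 76.5% were below 0, and 57.6% without control 1.

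Of 20 TCF and LEF factors and nuclear cofactors 15 were tested, all of them cofactors, and none was called. The corepressor gene Tle3 had the largest fold change, -0.44 on the log2 scale (SE 0.18, edgeR FDR 0.260), with 269 CPM in control 1 against 164 and 167 CPM in the other controls and 143 to 151 CPM after epinephrine. It was -0.17 without control 1, with an FDR of 0.0177. Of 27 known target genes 11 were tested and 16 had at most 10 counts in every sample. The feedback targets Notum, Nkd1 and Nkd2 had at most 4 counts in any sample, and Sp5 was at 0, whereas Axin2, Znrf3 and Apcdd1 were abundant enough to test and none of them was called with all samples. Apcdd1 stood at 20.1, 12.4 and 13.3 CPM in controls 1, 2 and 3 and at 19.0, 19.2 and 20.3 CPM after epinephrine, with control 1 among the epinephrine samples. Its log2 fold change was 0.35 (edgeR FDR 0.355). Without control 1, where 21.6% of all genes tested were called, it was 0.60 (edgeR FDR 4.71e-05). Among targets that many pathways share, Myc stood at 11.3, 8.63 and 9.20 CPM in control and at 14.4, 12.9 and 13.2 CPM after epinephrine, a log2 fold change of 0.47 (SE 0.13, edgeR FDR 0.108, and 0.000358 without control 1). Ccnd1, the cyclin gene often read as a beta-catenin target, was at 0.230 ± 0.0624 FPKM in control and 0.223 ± 0.0737 FPKM after epinephrine, whereas Ccnd2 was at 31.8 ± 3.16 and 31.1 ± 0.900 FPKM (SD, n = 3).

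**Figure D4:**
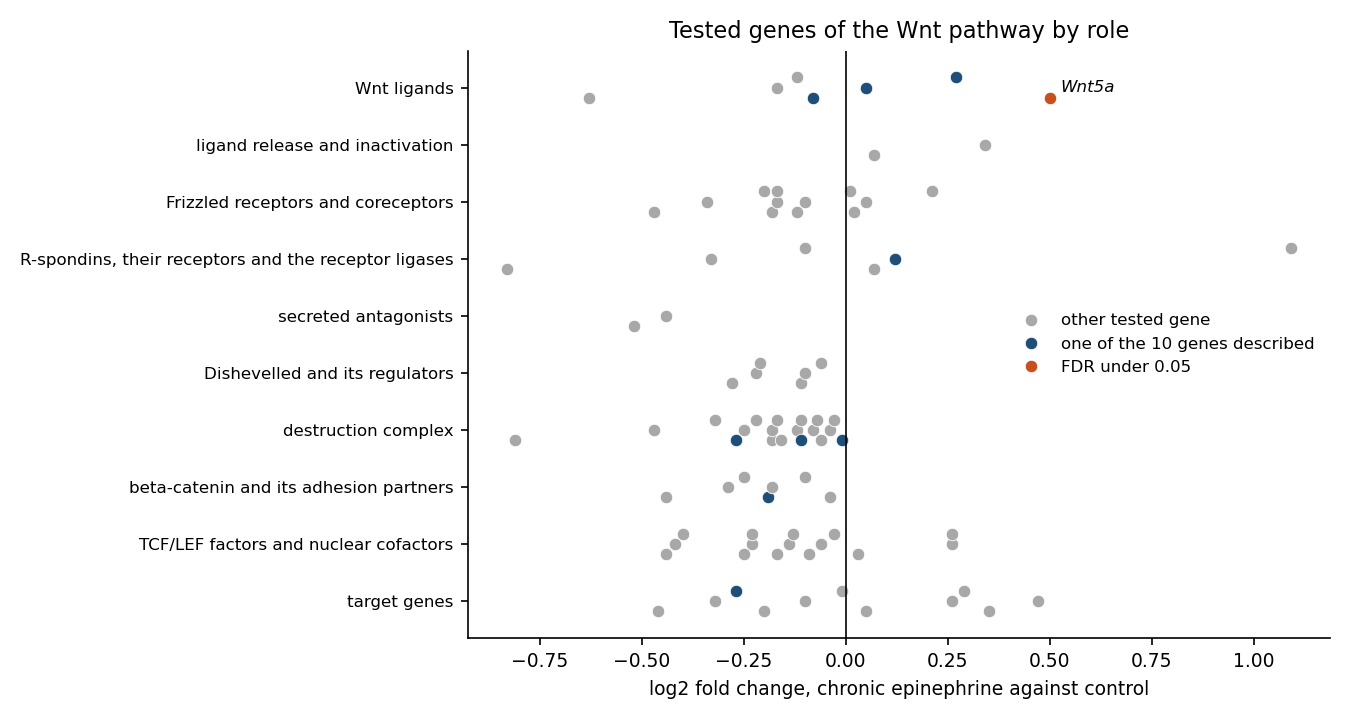
Log2 fold change, chronic epinephrine against control, of every tested gene in the role lists, 1 point per gene (genes in 2 lists appear in both), shifted vertically for legibility. Wnt5a at 0.50 is the only gene with an FDR under 0.05, and all points of the destruction complex list, regulators included, lie below 0, which was 15 of 19 without control 1.

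Without control 1, 14 of the 85 genes were called, 16.5% beside 21.6% of all genes tested in that analysis, and Wnt5a was the only one also called with all samples. Of the 14, 7 were higher after epinephrine, namely Wnt5a, Myc, Apcdd1, Cd44, Tle1, Dvl3 and Rspo1, with log2 fold changes from 0.20 to 1.82. The other 7 were lower, namely Ctnnb1, Kremen1, Amer1, Btrc, Csnk1g3, Tnks2 and Tle3, from -0.41 to -0.17. As a second list, the Wnt signaling pathway that the deposited table assigns from KEGG held 162 genes, among them all 10 members. Of 111 tested, 1 was called, again Wnt5a (0.901%, beside 2.63% of all genes). Without control 1, 6 of them were called higher and 9 lower (13.5%, beside 21.6% of all genes). With all samples 68.5% of the 111 were below 0, beside 50.5% of all genes, and without control 1 51.4% were, beside 49.7%.

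The genes whose pattern over the 6 samples was most like that of Ctnnb1 were Ankrd46, Narf and Hnrnpa1. Likeness was taken as the root mean square difference of log2 CPM after each gene's own mean was subtracted, over 9589 genes of at least 10 CPM, and it was 0.0238, 0.0247 and 0.0264 for these genes, beside a median of 0.189. Their log2 fold changes were -0.18, -0.21 and -0.16, none of them called by edgeR (FDR 0.365, 0.275 and 0.412). Because the genes were chosen for likeness over the same 6 samples, small differences and fold changes near that of Ctnnb1 follow from the choice. For Axin2, Neurl1b and Pi4kb were among the nearest genes, with differences of 0.0213 and 0.0282 beside a median of 0.218. These had log2 fold changes of -0.25 and -0.27 (edgeR FDR 0.334 and 0.325), near that of Axin2 by the same choice.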

How the data were processed

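The sources describe RNA of 6 MIN6 samples read on an Illumina instrument. Expected counts, which the authors deposited unscaled (8.34% of values not whole), and the FPKM that the authors deposited beside them, scaled to transcript length and library total, were used. The submitters' processing notes name GRCm38, and the aligner, counter, strand setting and annotation are not given in the sources used here. Of 22298 identifiers 22255 matched GENCODE M21. Rounded counts were filtered by filterByExpr, scaled by TMM and tested by the edgeR quasi-likelihood method (edgeR 4.0.16, R 4.3.3) without covariates, adjusting by Benjamini-Hochberg over all 12747 genes. The SE is the size of the log2 fold change over the square root of F. Alternatives were 3 other scalings, DESeq2 1.42.0 (Wald), limma 3.58.1 on log2 FPKM plus 1 or 0.1 (over the same genes), no filter, a minimum of 10 counts throughout, a block for the replicate number, and omission of each sample. Scripts were tested on simulated data. Members and lists were chosen with earlier results of these data known. Named genes are the members, role-list genes with an FDR under 0.05, the largest fold change per role, the 3 genes nearest to Ctnnb1 and to Axin2, and markers, and others were named after their values were seen. Tiki1 and Tiki2 matched no symbol. Of the genes this rule names, 2 are not reported here.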

Additional observations from a re-analysis of the deposited data

How the results depend on the processing

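Over the 9 alternatives that kept all samples, each of the 8 tested members kept its direction and stayed above an FDR of 0.05 (72 of 72 comparisons). With a sample left out, the log2 fold change ranged from -0.21 to 0.13 for Wnt3, -0.05 to 0.17 for Wnt4, -0.07 to 0.06 for Apc and -0.20 to 0.07 for Gsk3b, which changed sign, and from 0.14 to 0.36 for Wnt9a, 0.07 to 0.22 for Lgr4, -0.37 to -0.14 for Axin2 and -0.25 to -0.15 for Ctnnb1, which did not. The number of members called then ranged from 0 to 1, their median log2 fold change from -0.10 to 0.06, the called genes of the role lists from 0 to 14, all called genes from 47 to 2798, and those of at least 2-fold from 33 to 211 (335 and 92 with all samples). The highest of these counts and the highest median came without control 1, and the fewest called genes without epinephrine 1 or 2. The role lists held 0 called genes when any sample other than control 1 was left out. The cause was not tested. DESeq2 called 729 genes and 2 of the role lists (Wnt5a and Kremen1). Limma on log2(FPKM + 1) called 43 genes at 2-fold. The role lists held 0 called genes with library size only and with both limma analyses. With the replicate number as a block, 178 genes were called, 0 of the role lists and none of the members. Samples with the same number correlated in their deviations from the group means at 0.0502, 0.0677 and -0.0488, and not every sample correlated best with its own number, so the numbers were not taken as pairs. At this depth Tcf7l2 and Lef1 had too few counts to be tested, and Wnt3 and Wnt9a had the lowest counts of the tested members.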
